A study of Mus musculus with 12 samples.

Results

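Contractile and myofibroblast genes were examined across 12 bulk RNA-seq libraries of 3T3-L1, a fibroblast line from mouse embryos that can be turned into fat cells. The 10 genes were taken by symbol from the 56941 genes in the count table, a set chosen with earlier results of these data known. They were Acta2, Tagln, Cnn1, Myl9, Tpm1, Tpm2, Actg2, Ccn1, Ccn2, and Postn. All 10 were among the 14810 genes that passed a filter on low counts. The labels gave the cells as wild type and as 1 cell line, with 3 libraries in each of 4 conditions. The study's text gives the doses and the time, 24 hours. Control cells received vehicle. The IL-4/13 condition was IL-4 at 50 ng/mL with IL-13 at 50 ng/mL, the cytokines of type 2 inflammation. Inf was an inflammatory mixture of IL-1β (0.5 ng/mL), TNF-α (20 ng/mL), and IL-17A (50 ng/mL), and IL-4/13 + Inf was all 5 cytokines together. The comparisons asked how these cells responded to IL-4/13, to Inf, and to IL-4/13 in the presence of Inf.

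Fibroblasts that turn into myofibroblasts build stress fibers, in which actin and nonmuscle or smooth muscle myosin pull on the matrix, and TGF-β is the best known inducer of that state. Acta2, the smooth muscle α-actin, is its standard marker. Transcription factors that respond to the state of the actin cytoskeleton drive many of these genes. SRF with its MRTF cofactors binds the CArG box, and TEAD factors with YAP or TAZ bind a motif found at Ccn1, Ccn2, and many other genes. Postn encodes periostin, a secreted matrix protein known as a target of IL-4 and IL-13 in human airway epithelium and skin fibroblasts.

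Inf lowered most of the set. Against control, 7 of the 8 genes that were above the filter's cutoff in every library fell, where 31.6% of all tested genes were called in either direction, and Ccn1 was the exception by size. Tagln and Cnn1 were also called lower, but they had few counts and passed the filter only through groups in which they were high. Postn fell the most of the well counted members, to 31.0% of its control level, and Tpm1, Tpm2, and Myl9 fell to between 53.6% and 62.5%. With IL-4/13 by itself, Ccn2 rose and Acta2 fell, to 83.1% of control. With Inf present, IL-4/13 raised Ccn1 and Ccn2 above their levels with Inf alone and lowered Postn further, while the log2 fold changes of the actins, tropomyosins, and myosin light chain lay between −0.17 and 0.05.

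Promoters were available in RefSeq (build GRCm38.p6) for 7 of the 10 genes, as 8 windows from 250 bases before to 50 bases after the start of transcription. Tagln, Actg2, and Ccn2 were not matched. The windows were searched for the CArG box, by its name, and for the TEAD motif GGAATG, on both strands. The CArG box was counted only in its strict form, CC and GG around 6 bases that are each A or T, and forms with a mismatch were not counted. The 200 bases from 250 to 51 bases before the start are shown for the 4 genes that held a match. A link between a match and the response to cytokines was not tested. Each stretch is written 5′ to 3′ on the strand of its gene, with the match in capitals. They are Myl9 at chr2:156775214-156775413 on the plus strand, Acta2 at chr19:34255424-34255623, Tpm1 at chr9:67049264-67049463, and Ccn1 at chr3:145650036-145650235, the last 3 on the minus strand.
Myl9: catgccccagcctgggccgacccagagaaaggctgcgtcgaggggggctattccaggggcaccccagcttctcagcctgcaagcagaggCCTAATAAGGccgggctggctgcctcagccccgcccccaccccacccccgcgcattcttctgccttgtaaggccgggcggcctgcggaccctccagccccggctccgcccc
Acta2: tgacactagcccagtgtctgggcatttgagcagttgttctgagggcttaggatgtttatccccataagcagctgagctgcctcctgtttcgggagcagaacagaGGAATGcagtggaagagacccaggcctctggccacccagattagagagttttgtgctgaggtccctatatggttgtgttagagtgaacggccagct
Tpm1: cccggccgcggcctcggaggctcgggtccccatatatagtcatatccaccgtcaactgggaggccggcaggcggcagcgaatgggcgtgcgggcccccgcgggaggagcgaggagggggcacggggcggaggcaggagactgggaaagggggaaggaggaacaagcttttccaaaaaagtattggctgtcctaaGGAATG
Ccn1: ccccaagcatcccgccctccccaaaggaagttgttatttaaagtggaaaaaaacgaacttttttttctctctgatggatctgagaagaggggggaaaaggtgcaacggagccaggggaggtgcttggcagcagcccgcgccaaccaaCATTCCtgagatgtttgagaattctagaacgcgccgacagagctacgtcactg

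In its strict form, the CArG box was found only in the Myl9 window, starting at position −161 from the start of transcription. The strict form was present in 1.63% of all 32851 RefSeq promoter windows of the same length. Forms with a mismatch, such as ccctatatgg in the Acta2 window and ccttgtaagg in the Myl9 window, were not counted. The TEAD motif was found in Acta2 at position −146, in Tpm1 at −56, and, on the opposite strand, in Ccn1 at −103. It was present in 14.7% of all windows. No match of either was found in the windows of Tpm2 and Cnn1 or in the 2 windows of Postn. A match describes letters in the window and is not evidence of binding.

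Levels were compared between genes as CPM, which are counts scaled to library size, divided by the length of the longest transcript in kilobases. In control cells, Acta2 was the highest at 631 ± 8.35 CPM per kilobase (SD, n = 3 for this and each value that follows). Tpm1 was at 369 ± 1.19, Ccn1 at 203 ± 3.99, and Postn at 82.0 ± 3.28 CPM per kilobase. Actg2 at 127 ± 3.68 and Myl9 at 125 ± 10.7 did not differ beyond their spread. Tpm2 was at 47.1 ± 0.81 and Ccn2 at 7.64 ± 0.76. Tagln at 0.89 ± 0.34 and Cnn1 at 0.40 ± 0.037 CPM per kilobase were the lowest, and their counts did not exceed 32 and 17 in any library. Other genes overlap 67.9% of the exon bases of Tagln on the opposite strand. Its level may therefore depend on whether strand was used in counting, which is not given. The order depends on which transcripts are made. With the length of all exons joined in place of the longest transcript, Tpm1 was at 165 CPM per kilobase, below Ccn1 at 203. In Inf, Postn was at 25.4 ± 0.73 CPM per kilobase, already below Tpm2 at 28.5 ± 1.61. In IL-4/13 + Inf, Postn was at 16.4 ± 0.22 CPM per kilobase, below Tpm2 at 26.8 ± 0.22.

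The cells carried fibroblast transcripts and few of the defining transcripts of smooth muscle. All 8 fibroblast markers passed the filter, with a summed level of 12990 to 14890 CPM in control, 11440 to 12010 in IL-4/13, 11080 to 11850 in Inf, and 9397 to 9661 in IL-4/13 + Inf. With Inf, 4 of the 8 were called higher and 4 lower, where 16.3% of all tested genes were called higher and 15.3% lower. Dcn, which encodes the matrix proteoglycan decorin, rose from 103 ± 4.31 CPM in control to 1756 ± 72.0 in Inf, Lum, which encodes lumican, from 2.25 ± 0.30 to 22.4 ± 1.26, and the receptor gene Pdgfra from 196 ± 3.02 to 384.5 ± 41.4, while Col1a1, Col1a2, Vim, and Thy1 fell. Of 6 smooth muscle markers, 4 passed. Myocd, the smooth muscle master regulator, had at most 1 count and Myh11, the smooth muscle myosin, at most 10 counts in any library. The summed level of the 6 was 62.4 to 68.1 CPM in control, 68.8 to 72.3 in IL-4/13, 47.6 to 53.5 in Inf, and 54.1 to 55.3 in IL-4/13 + Inf. Most of this sum came from Smtn, at 59.4 ± 2.36 CPM in control and 43.0 ± 2.08 in Inf. Of 6 pericyte markers, 2 passed. Their sum was 46.1 to 52.3 CPM in control, 54.6 to 59.7 in IL-4/13, 15.03 to 18.4 in Inf, and 18.5 to 20.9 in IL-4/13 + Inf. Mcam, which encodes a surface adhesion molecule of pericytes and other cells, made up most of it, at 38.4 ± 1.38 CPM in control and 12.3 ± 0.90 in Inf. Kcnj8 and Abcc9 had 3 or fewer counts throughout. Actc1, Myod1, Myog, and Ckm, which mark striated muscle, were at 0 in every library. Adipoq, Plin1, Cfd, and Lep, which mark fat cells, had 3 or fewer counts. The other 2 fat cell markers passed the filter, and the sum of the 6 was 28.1 to 31.3 CPM in control, 35.5 to 41.6 in IL-4/13, 36.1 to 39.7 in Inf, and 27.99 to 32.8 in IL-4/13 + Inf. Fabp4, which encodes a fatty acid binding protein, rose from 11.3 ± 0.79 CPM in control to 30.1 ± 1.85 in Inf, and Pparg, the master regulator of fat cells, fell from 18.1 ± 0.82 to 7.71 ± 1.17. The sum of 6 macrophage markers was 20.2 to 23.7 CPM in control, 23.5 to 26.0 in IL-4/13, 44.7 to 59.6 in Inf, and 43.3 to 49.5 in IL-4/13 + Inf, of which Cd14 gave 44.7 ± 6.81 in Inf. Adgre1 had 3 or fewer counts. The endothelial sum was at most 1.58 CPM and the keratinocyte sum at most 0.66 CPM. In the first, Cdh5 was at 0.12 ± 0.0049 CPM in control and 0.85 ± 0.44 with Inf, with at most 22 counts in any library. Cdh5 passed the filter only through libraries with cytokines, in which it was higher, so its values are a description. These marker levels moved with Inf, and their part in the results was not tested. In bulk RNA, fewer cells of a type and less RNA per cell cannot be told apart. Total counts were 13446005 to 20775769 per library.

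**Figure D1:**
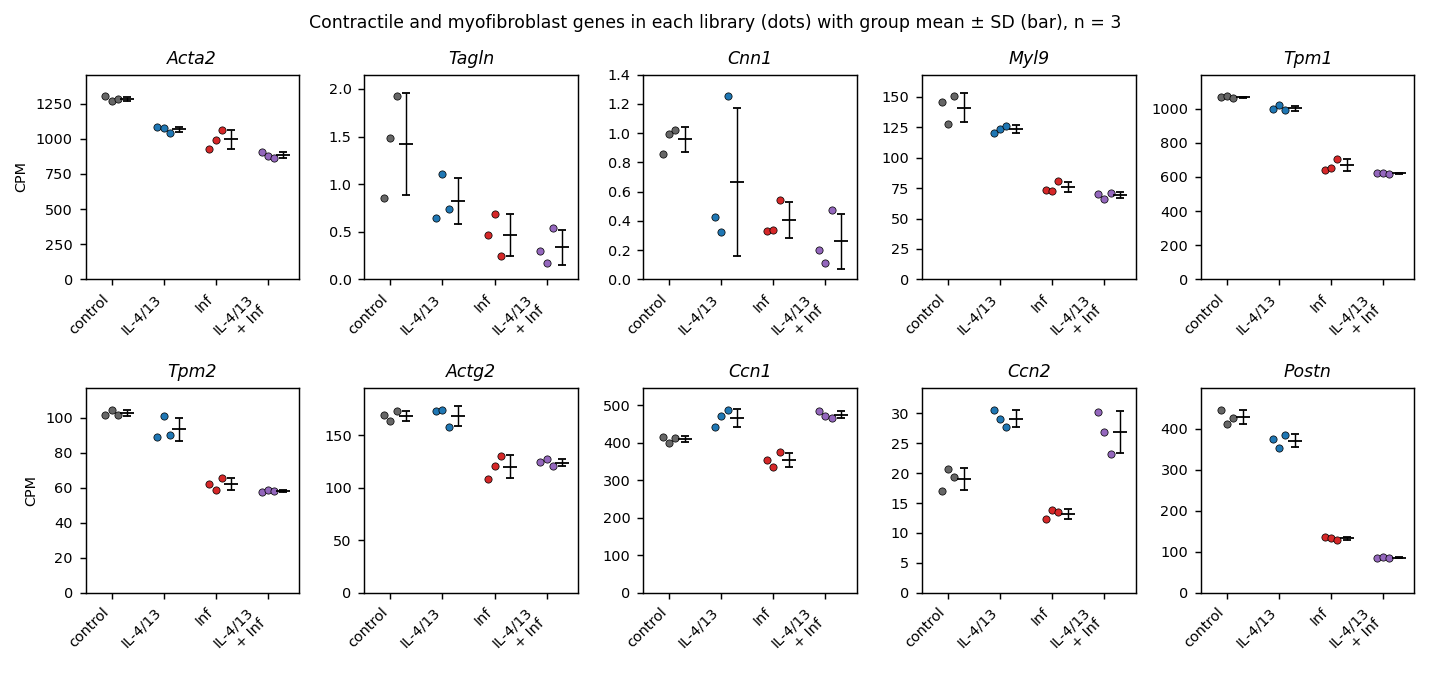
CPM of each of the 10 genes (y axis, starting at 0) in the 4 conditions (x axis), with 1 dot per library and a bar at the mean ± SD of 3 libraries. Postn drops from 412 to 446 CPM in control to 128 to 135 in Inf and 85.0 to 87.1 in IL-4/13 + Inf, whereas Ccn2 is highest in the 2 conditions that contain IL-4/13.

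A gene was called higher or lower at an adjusted p below 0.05 in edgeR's quasi-likelihood test, with Benjamini-Hochberg adjustment over all 14810 genes, and a log2 fold change beyond 0.25. In Inf against control, 31.6% of all tested genes were called, 16.3% higher and 15.3% lower, and their median log2 fold change was 0.01. Tagln and Cnn1 passed the filter only through groups in which they were high, so they are left out of the count. Of the other 8 genes, 7 were called lower and none higher, with a median log2 fold change of −0.60. The adjusted p-values given from here on come from this test unless DESeq2 is named.

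The actins had the smallest log2 fold changes among the called genes. Acta2 was at 1301, 1267, and 1283 CPM in the control libraries and at 927, 993, and 1066 CPM in the Inf libraries. Every Inf library was below every control library, and the log2 fold change was −0.37 ± 0.041 (SE; adjusted p = 1.3e-08 in edgeR). Actg2, the enteric smooth muscle γ-actin, was at 170, 163, and 173 CPM in control and 109, 121, and 131 CPM in Inf. These groups did not overlap either, with a log2 fold change of −0.49 ± 0.055 (adjusted p = 1.7e-08). Of the 50-base stretches in the longest Acta2 transcript, 0.352% also occurred in transcripts of other genes, and for the other 9 genes the share was 0%.

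Genes for proteins that act on actin filaments also fell. Tpm1 encodes a tropomyosin, which winds along the filament and controls access of myosin. It was at 1066, 1071, and 1065 CPM in control and 641, 654, and 708 CPM in Inf, a log2 fold change of −0.68 ± 0.039 (adjusted p = 2.7e-15). Tpm2, another tropomyosin, was at 101, 105, and 102 CPM in control and 61.9, 58.6, and 65.6 CPM in Inf, a log2 fold change of −0.73 ± 0.057 (adjusted p = 5.1e-12). Both tropomyosins were lower in every Inf library than in any control library. Myl9, a regulatory light chain of myosin II, was at 146, 127, and 150 CPM in control and 73.6, 73.0, and 80.5 CPM in Inf. Its groups lay apart as well, and its log2 fold change of −0.90 ± 0.058 (adjusted p = 4.6e-14) put it at 53.6% of control.

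Tagln and Cnn1 encode transgelin and calponin, actin-binding proteins typical of smooth muscle, and both were near the limit of counting. Tagln had 15, 24, and 32 counts in control and 7, 14, and 4 counts in Inf. The ranges lay 1 count apart, and after scaling for depth (0.86 to 1.92 against 0.24 to 0.68 CPM) they did not overlap. The log2 fold change was −1.56 ± 0.44 (adjusted p = 0.0047). Cnn1 had 15, 16, and 17 counts in control and 5, 7, and 9 counts in Inf, with a log2 fold change of −1.23 ± 0.50 (adjusted p = 0.048). The Cnn1 call was lost with DESeq2 (adjusted p = 0.084), with no filter (0.071), with robust dispersion off (0.0502), and in 8 of the 12 fits that left out 1 library, with adjusted p-values of 0.038 to 0.14 over the 12. It was kept without IL-4/13 replicate 2 or 3, Inf replicate 3, or IL-4/13 + Inf replicate 3. Cnn1 passed the filter through the control group, in which alone all 3 libraries exceeded 0.60 CPM, and Tagln through control and IL-4/13. A gene that passes in this way had to differ between groups, so both calls are given as a description. Of the exon bases of Tagln, 67.9% are overlapped on the opposite strand by Pcsk7 and Gm48529. The library kit keeps the strand, but whether strand was used in counting is not given in the sources used here. Pcsk7 had 554 to 807 counts, far more than Tagln, and a log2 fold change of −0.03 in Inf against control.

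The CCN genes encode secreted matricellular proteins that signal through integrins. Ccn2, also called connective tissue growth factor, was at 16.97, 20.7, and 19.4 CPM in control and 12.3, 13.8, and 13.5 CPM in Inf. The groups did not overlap and the log2 fold change was −0.52 ± 0.10 (adjusted p = 1.3e-04). Ccn1 was at 414, 400, and 414 CPM in control and 355, 337, and 374 CPM in Inf. It was lower in every Inf library, but its log2 fold change of −0.21 ± 0.044 (adjusted p = 3.4e-04) was within the threshold of 0.25, so it was not called. The exons of Ccn2 are overlapped on the opposite strand over 23.2% of their bases by Gm15270, which had at most 1 count.

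Postn had the largest difference of the 8 genes other than Tagln and Cnn1. It was at 446, 412, and 426 CPM in control and 135, 135, and 128 CPM in Inf. The groups did not overlap, with a log2 fold change of −1.69 ± 0.045 (adjusted p = 1.3e-23), a 3.23-fold lower level.

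In IL-4/13 against control, 5.35% of all tested genes were called, 2.78% higher and 2.57% lower. Of the 10 genes, Ccn2 was called higher and Acta2 lower, and the median of the 8 without Tagln and Cnn1 was −0.11. Ccn2 was at 30.6, 29.0, and 27.7 CPM with IL-4/13, above every control library, with a log2 fold change of 0.62 ± 0.095 (adjusted p = 3.1e-05) or 1.53-fold. Acta2 was at 1081, 1076, and 1044 CPM, below every control library, with a log2 fold change of −0.27 ± 0.041 (adjusted p = 3.4e-05), which is close to the threshold. Ccn1 was above control in every library (441, 471, and 488 CPM) and Postn below it in every library (375, 353, and 384 CPM), but both were within the threshold. Their log2 fold changes were 0.19 ± 0.044 (adjusted p = 0.0048) and −0.21 ± 0.043 (adjusted p = 0.0015). Myl9 had a log2 fold change of −0.19 ± 0.056 (adjusted p = 0.027), which reached −0.26 and was called when control replicate 2, the lowest of its group at 127 CPM, was left out. For Actg2 the estimate was −0.00, with a 95% interval of −0.12 to 0.11. Tpm1 at −0.09 (−0.17 to −0.01) and Tpm2 at −0.14 (−0.25 to −0.02) did not pass the test, with adjusted p-values of 0.15 and 0.14. For Tagln and Cnn1 the intervals ran from −1.62 to 0.05 and from −1.53 to 0.38, so a change was not detectable at this depth.

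In IL-4/13 + Inf against Inf, 14.6% of all tested genes were called, 7.55% higher and 7% lower, and 3 of the 10 genes were called. These 3 were the secreted proteins. Ccn2 was at 30.3, 26.9, and 23.3 CPM with all 5 cytokines against 12.3 to 13.8 CPM with Inf, a log2 fold change of 1.02 ± 0.099 (adjusted p = 3.4e-09) or 2.03-fold. Ccn1 was at 486, 471, and 468 CPM against 337 to 374 CPM, a log2 fold change of 0.42 ± 0.044 (adjusted p = 1.8e-08). Both CCN genes were higher in every library with all 5 cytokines than in any library with Inf. Postn was at 85.0, 87.1, and 85.3 CPM against 128 to 135 CPM, a log2 fold change of −0.63 ± 0.047 (adjusted p = 1.3e-11). It was lower in all 3 libraries.

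The remaining 7 genes were not called in that comparison. Acta2 was at 909, 878, and 867 CPM, below every Inf library, and its log2 fold change of −0.17 ± 0.041 (adjusted p = 0.0029) was within the threshold. Tpm1 had −0.10 ± 0.039, also within the threshold (adjusted p = 0.0499). Myl9 had −0.13, with a 95% interval of −0.25 to −0.01, and Tpm2 had −0.09, with an interval of −0.21 to 0.03. Actg2 was at 0.05, with an interval of −0.07 to 0.16. Tagln at −0.54 and Cnn1 at −0.69 had intervals that ran from −1.69 and −1.98 to 0.60, so a change was not detectable at this depth.

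**Figure D2:**
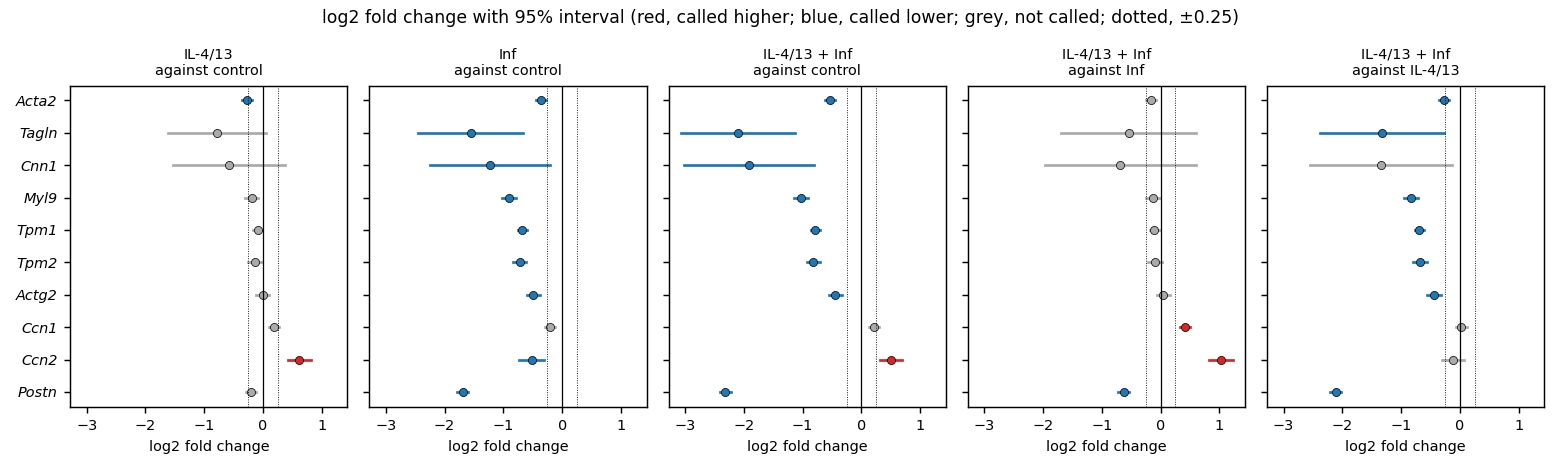
log2 fold change (x axis) of the 10 genes (y axis) in 5 comparisons, each with its 95% interval, red where called higher, blue where called lower, grey where not called, with dotted lines at ±0.25. The long intervals of Tagln and Cnn1 stand beside narrow ones for the other 8 genes, and the 2 CCN genes are the only ones in red.

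IL-4/13 + Inf against control shares its control libraries with the comparisons above, so the values are given side by side and are not a further test. In it, 24.9% of all tested genes were called, 13.4% higher and 11.5% lower, and among the 8 genes other than Tagln and Cnn1, 6 were called lower and Ccn2 higher. Postn was at 20.04% of control, a log2 fold change of −2.32 ± 0.047, against −1.69 with Inf and −0.21 with IL-4/13. Acta2 was at 68.9% of control, with −0.54 against −0.37 and −0.27. Myl9 was at 49.0%, with −1.03 against −0.90 and −0.19. Tpm1 had −0.78 against −0.68 and −0.09, and Tpm2 had −0.82 against −0.73 and −0.14. Actg2 had −0.44 against −0.49 and −0.00. Ccn2 was 1.42-fold above control, with 0.50 against −0.52 and 0.62, and Ccn1 had 0.21 against −0.21 and 0.19 and was within the threshold in all 3. Tagln at −2.10 (adjusted p = 6.6e-04) had 6, 3, and 8 counts with all 5 cytokines. Cnn1 at −1.91 (adjusted p = 0.0064) had 4, 2, and 7 counts, and its call was lost without IL-4/13 + Inf replicate 2, the lowest library (−1.56, adjusted p = 0.0505). Both passed the filter only through groups in which they were high, so these values too are a description.

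Set against IL-4/13 alone, the addition of Inf lowered 6 of the 8 genes other than Tagln and Cnn1 and raised none, where 24.3% of all tested genes were called, 13.3% higher and 11% lower. The 2 CCN genes did not pass. Ccn2 was at 23.3 to 30.3 CPM with all 5 cytokines and 27.7 to 30.6 CPM with IL-4/13, a log2 fold change of −0.11 with an interval of −0.30 to 0.07. Ccn1 had 0.02, with an interval of −0.06 to 0.11. Postn fell by 2.11 on the log2 scale, Myl9 by 0.84, Tpm1 by 0.69, Tpm2 by 0.68, Actg2 by 0.44, and Acta2 by 0.27. Tagln had −1.32 with an adjusted p of 0.049 that was lost with DESeq2 (0.063), with no filter (0.057), with robust dispersion off (0.052), and in 8 of the 12 fits that left out 1 library, in which it ranged from 0.030 to 0.21. It was kept without control replicate 1, Inf replicate 2 or 3, or IL-4/13 + Inf replicate 3. Cnn1 had −1.34 with an adjusted p of 0.082 and was not called, but was without IL-4/13 replicate 2 (0.045) or IL-4/13 + Inf replicate 3 (0.037).

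The interaction term tests whether the log2 response to IL-4/13 was different with Inf than without it. It was called for 3.11% of all tested genes, 1.52% higher and 1.59% lower, and for Postn alone among the 10. The response of Postn to IL-4/13 was −0.63 with Inf and −0.21 without it, a difference of −0.42 ± 0.064 (adjusted p = 6.4e-05). For Ccn1 the responses were 0.42 and 0.19, and the difference of 0.23 ± 0.062 had an adjusted p of 0.032 but was within the threshold of 0.25. It was called at 0.26 without IL-4/13 replicate 3 and at 0.28 without Inf replicate 3. For Ccn2 the responses were 1.02 and 0.62, and the difference of 0.41 ± 0.14 did not pass (adjusted p = 0.11), although it did at 0.49 without IL-4/13 + Inf replicate 3 (adjusted p = 0.044). For Acta2, Myl9, Tpm1, Tpm2, and Actg2 the differences lay between −0.01 and 0.10, and the intervals had bounds between −0.12 and 0.23. For Tagln and Cnn1 the intervals ran from −1.24 to 1.72 and from −1.62 to 1.39.

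**Figure D3:**
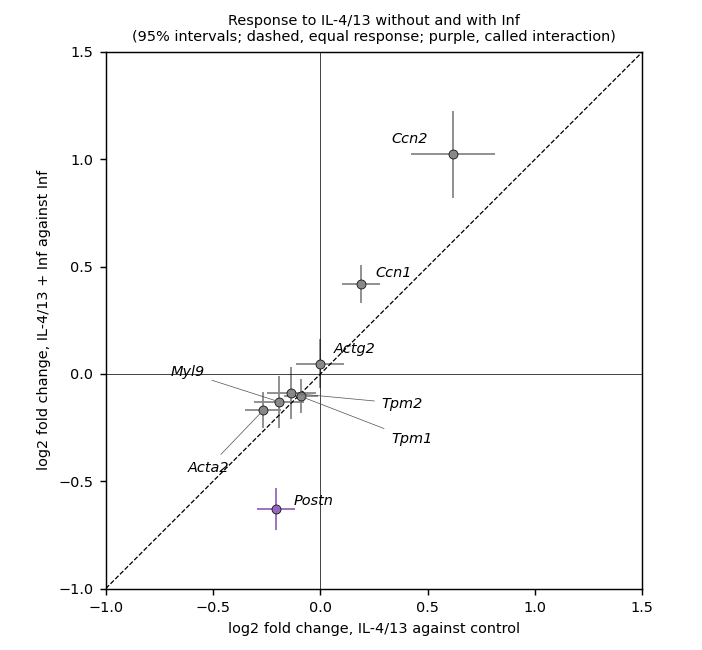
log2 fold change of IL-4/13 + Inf against Inf (y axis) beside that of IL-4/13 against control (x axis) for 8 of the 10 genes, with 95% intervals and a dashed line of equal response. Tagln and Cnn1 are left out for their wide intervals. Postn, in purple, lies below the line at −0.63 and −0.21, and Ccn2 and Ccn1 lie above it. The actins, tropomyosins, and Myl9 lie nearer to the line, with Acta2 at −0.17 and −0.27.

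Across the 12 libraries the genes differed in how closely they moved together. Tpm1, Tpm2, Myl9, and Postn had Pearson's r of 0.972 to 0.993 with each other in log2 CPM. With these 4, Actg2 had an r of 0.907 to 0.957, Acta2 of 0.874 to 0.892, Tagln of 0.791 to 0.811, and Cnn1 of 0.704 to 0.761, and Acta2 and Actg2 had 0.803 with each other. Ccn1 and Ccn2 had an r of 0.917 with each other and of −0.21 to 0.41 with the other 8 genes. These are descriptions over libraries that share 4 conditions, so the coefficients reflect the condition means. Among all tested genes, the 3 most like Postn were Ly6c1 (r = 0.998), Tgfbi (0.997), and Asap1 (0.995). Tgfbi encodes a secreted matrix protein of the same family as periostin. Those most like Myl9 were Cnn2 (0.992), Sertad4 (0.992), and Vim (0.989), and those most like Tpm1 were H19 (0.996), Hes1 (0.996), and Spon2 (0.995). Tpm2 was most like Tpm1 (0.993). Acta2 was most like Spry1 (0.984), Actg2 like Brip1os (0.985), Ccn1 like Wdr89 (0.962), and Ccn2 like Ncbp1 (0.978). Tagln and Cnn1, at their low counts, reached 0.938 with Hcfc2 and 0.899 with Ncbp2as2.

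Other genes of the actin and myosin machinery, were a list of 28, of which 25 were tested. With Inf, 9 fell, 2 rose, and 14 did not pass, and the median log2 fold change of the 25 was −0.25. Of all tested genes, 15.3% were called lower and 16.3% higher. Vcl, which encodes vinculin of focal adhesions, fell by 0.79, Myh9, the main nonmuscle myosin heavy chain, by 0.70, and the calponin Cnn2 by 0.61. Actg1 fell by 0.52, and Actb, the other cytoplasmic actin, had −0.25 and was not called. Tagln2, a paralog of Tagln, rose by 0.76 to 835 ± 64.2 CPM from 492 ± 6.95, and Des, which encodes desmin, rose by 0.89 at only 1.97 ± 0.25 CPM in control. Acta1 had at most 14 counts and Actc1 none. With IL-4/13 alone, where 5.35% of all tested genes were called, edgeR and DESeq2 called 0 of these 25 genes, and 9 had an unadjusted p below 0.05. With IL-4/13 added to Inf (14.6% of all tested genes), edgeR called 0 and DESeq2 called 1, and 11 had an unadjusted p below 0.05.

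The CCN family had 5 of its 6 members tested, since Ccn6 had at most 7 counts. Ccn5, which unlike its relatives lacks the C-terminal domain, had the opposite sign to Ccn2 in the 3 comparisons below. It was at 13.3 ± 1.59 CPM in control, 7.20 ± 1.18 with IL-4/13, 29.6 ± 0.82 with Inf, and 9.46 ± 1.00 with both. Its log2 fold changes were −0.89 for IL-4/13, 1.16 for Inf, and −1.64 for IL-4/13 added to Inf, and all 3 were called. Ccn4 fell by 0.37 with IL-4/13, by 0.28 with Inf, and by 0.29 with IL-4/13 added to Inf. The call with Inf was lost without control replicate 2, and the last without Inf replicate 2. Ccn3 rose by 0.53 with Inf, at 4.56 to 6.59 CPM.

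Factors known to drive many genes of this kind were listed with their regulators. Of 17 tested genes of the SRF, MRTF, YAP, and TEAD pathways, 3 fell and 2 rose with Inf, a share near the 31.6% of all tested genes. Tead4 fell by 0.89, Srf itself by 0.52, and the kinase Rock2 by 0.38, while Vgll4, a TEAD partner, rose by 0.36 and Rhob by 0.29. Yap1 at 0.03, Mrtfa at −0.10, and Mrtfb at −0.09 were not called. Of 12 genes known as YAP or SRF targets, 6 fell and 3 rose with Inf (31.6% of all tested genes were called), led by Nuak2 at −1.39, Fhl2 at −0.99, Egr1 at −0.92, and Amotl2 at 0.91. Ankrd1, a TEAD target often read beside the CCN genes, was at 71.1 ± 2.33 CPM in control, 88.5 ± 1.87 with IL-4/13, 48.4 ± 3.73 with Inf, and 94.7 ± 2.27 with both. Its log2 fold changes of 0.32, −0.55, and, for IL-4/13 added to Inf, 0.96 had the signs of those of Ccn2. Amotl2 had the opposite signs, with −0.26, 0.91, and −0.44, and in 3 of 20 alternatives the first of these was not called. With IL-4/13 added to Inf, the other 10 target genes were not called, so that 2 of 12 were called where 14.6% of all tested genes were.

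Of 11 TGF-β genes, 4 rose and 4 fell with Inf, where 31.6% of all tested genes were called. Tgfb1 rose by 0.68, Tgfb2 by 0.50, and Ltbp2, which encodes a matrix partner of latent TGF-β, by 0.90. The receptor gene Tgfbr2 fell by 0.94 and Ltbp1 by 1.09. The other receptor, Tgfbr1, had −0.20, and Tgfb3 had −0.23, and neither was called. With IL-4/13 alone, edgeR and DESeq2 called 0 of the 11 (5.35% of all tested genes), and 3 had an unadjusted p below 0.05. With IL-4/13 added to Inf (14.6% of all tested genes), Tgfb2 rose by 0.57 and Tgfbr2 by 0.38, Smad3 fell by 0.43, and Ltbp2 and Ltbp1 fell by 0.36 and 0.25, calls that were lost in 4 and 8 of 20 alternatives.

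Of 14 tested genes of myofibroblast matrix, 7 rose and 6 fell with Inf, against 16.3% and 15.3% of all tested genes. The median of the 14 was 0.13. Itga11, a collagen-binding integrin of myofibroblasts, fell by 2.60, Tgfbi by 1.61, Fn1 by 0.69, and Col1a1 by 0.64. Itga11 was at 4.02 to 5.21 CPM in control and 0.42 to 1.02 in Inf, where the filter's cutoff was 0.60 CPM. It passed the filter through groups in which it was high, so its fall, counted among the 6, is a description. Thbs1 rose by 1.40, Pdgfrb by 0.84, Lox, which encodes the enzyme that crosslinks collagen, by 0.71, and Tnc by 0.48. With IL-4/13 alone, Lox rose by 0.98 and Tnc by 0.76, and 6 genes fell, against 2.57% of all tested genes, led by Itga11 at −1.40, Pdgfrb at −0.65, and Col3a1 at −0.48. Among the 6, the call of Col1a1 was lost in 7 of 20 alternatives and that of Col1a2 in 1. With IL-4/13 added to Inf (14.6% of all tested genes), Thbs2 fell by 1.08, Tgfbi by 0.84, Pdgfrb by 0.77, and Col3a1 by 0.50, while Tnc and Lox rose by 0.54 and 0.41. Tnc with Inf was lost in 2 of 20 alternatives and with IL-4/13 added to Inf in 1. Cthrc1 had 0 counts and Fap at most 7.

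**Figure D4:**
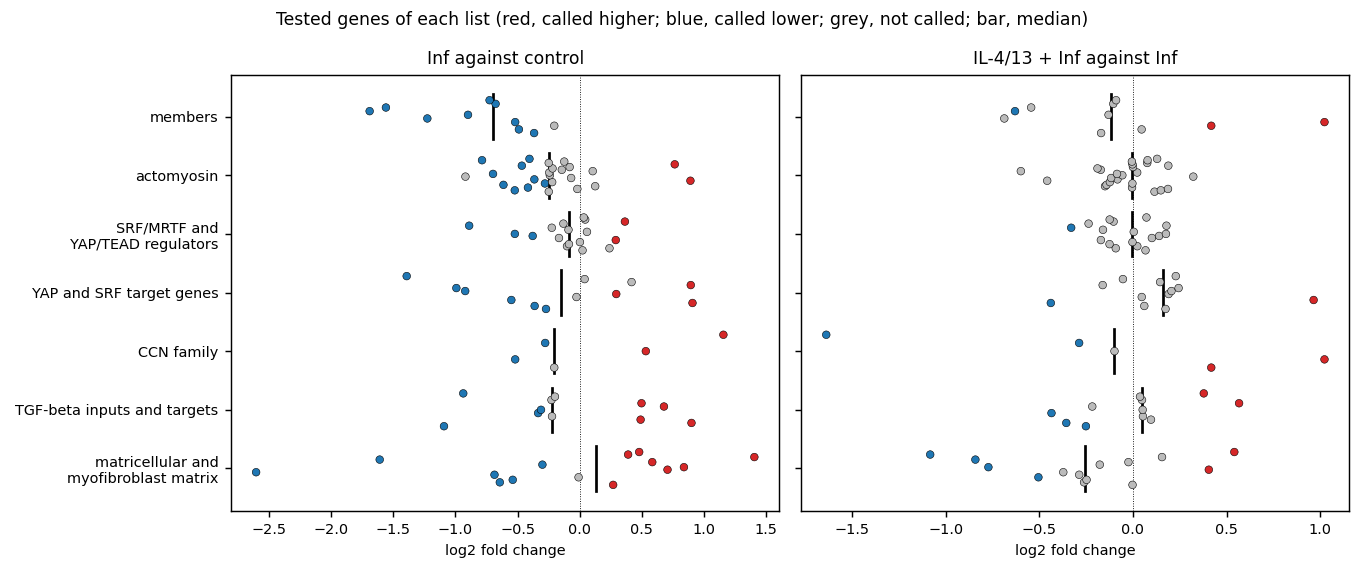
log2 fold change (x axis) of each tested gene in the 10 members and in 6 related lists (y axis), for Inf against control on the left and IL-4/13 + Inf against Inf on the right, with a bar at each list's median, red where called higher and blue where called lower. With Inf, 9 members are blue and the list of 14 matrix genes is split into 7 red and 6 blue. Of all tested genes, 16.3% were called higher and 15.3% lower. The 9 include Tagln and Cnn1, and the 6 include Itga11, which passed the filter only through groups in which they were high. With IL-4/13 added, all 25 actomyosin genes are grey. Ccn1 and Ccn2 appear both among the members and in the CCN family.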

How the data were processed

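The authors extracted RNA with a PureLink kit, selected polyadenylated RNA, made Illumina stranded libraries, and deposited raw counts, whole numbers of reads per gene without normalization. The submitters' processing notes name STAR, featureCounts, and GRCm39. Their versions, the annotation, and the strand setting are not given in the sources used here, so reads from overlapping genes on opposite strands may not have been separated. The doses and time came from the study's text.

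Genes were filtered with filterByExpr by condition (minimum count 10, minimum total 15) and scaled by TMM, and all 12 libraries were fitted with edgeR 4.0.16 (R 4.3.3) by the robust quasi-likelihood method, with a term per condition and 8 residual degrees of freedom. P-values were adjusted by Benjamini-Hochberg within each of 6 contrasts. The study's methods name DESeq2 for bulk libraries, and DESeq2 1.42.0 was an alternative. The thresholds, 0.05 and 0.25, are those of the study's pseudobulk tests. CPM are counts over the total of the tested genes times the TMM factor. For correlations, log2 CPM had a prior count of 2. Lengths, shared 50-mers, and exon overlaps came from GENCODE M21 on GRCm38, and no coordinates were taken from it.

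The members and all gene lists were chosen with earlier results of these data known. From each pathway list the text names the called genes with the largest change, up to 4 per contrast, and its first 4 genes where they bear on a statement. Cnn2, Rhob, Yap1, Lox, Fn1, Col1a1, and Col3a1 were named outside that rule in at least 1 contrast, after their values were seen. Cell type marker lists are given as sums, with their defining genes and those that moved. One gene was taken out of the lists and their counts and is not reported here. The labels do not say whether libraries of a condition came from separate cultures, so p-values measure the spread between libraries, which may be technical. All libraries carry 1 batch label. No pair of libraries was identical. Alternatives were DESeq2, scaling by its size factors or by library size, fitting unfiltered genes, a mean of at least 50 counts, a replicate block, robust dispersion off, only the libraries compared, thresholds of 0 and 1, and each library left out. For likeness the alternative was a prior count of 0.5. Figures were drawn with matplotlib 3.10.9. The single-cell, protein, and animal data of the study were not analysed here.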

Additional observations from a re-analysis of the deposited data

Results flagged for a closer look

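In edgeR, the interaction of IL-4/13 and Inf was called for 1 of the 10 genes and for 10 of the 82 tested genes of the related pathway lists, where 3.11% of all tested genes were called. Postn had a difference between its responses with and without Inf of −0.42 (adjusted p = 6.4e-05). Its libraries with IL-4/13 lay below those without it both with Inf and without Inf, which does not bear on this difference. In the CCN family, Ccn5 had −0.75 (adjusted p = 0.0060). Among matrix genes, Tgfbi had −0.71 (adjusted p = 1.4e-05), Thbs2 −0.71 (1.5e-06), and Lox −0.57 (7.1e-09). Among YAP and SRF target genes, Ankrd1 had 0.65 (2.6e-06), Nuak2 0.65 (0.0011), Egr1 0.41 (0.0059), and Filip1l −0.35 (0.0057). Among TGF-β genes, Tgfbr2 had 0.28 (0.0089), which was within the threshold without IL-4/13 + Inf replicate 2, at 0.25. Srf had 0.26 (0.030), which was called in 10 of 19 alternatives. Among cell type markers, the fat cell marker Fabp4 had −1.14 (6.3e-05) and the fibroblast markers Pdgfra −1.02 (2.6e-06) and Dcn −0.26 (0.0080). No explanation of these differences was tested.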

How the results depend on the processing

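Of 31 calls of the 10 genes over the 6 comparisons, 28 were kept under all 20 alternatives in which the thresholds stayed as they were, or under those that could be fitted. The other 3 were those of Tagln and Cnn1 given with the results above, which at a mean of at least 50 counts were not tested. The 31 include all calls of Tagln and Cnn1, which are a description. The interaction could not be fitted with only the libraries compared. At a log2 fold change threshold of 1, the members called in IL-4/13 against control, Inf against control, IL-4/13 + Inf against control, IL-4/13 + Inf against Inf, IL-4/13 + Inf against IL-4/13, and the interaction were 0, 3, 4, 1, 2, and 0, beside 108, 1095, 1096, 238, 936, and 40 of all genes. The 3 and the 4 include both Tagln and Cnn1, and the 2 include Tagln. Both genes passed the filter only through groups in which they were high. At a threshold of 0, the members called were 5 in IL-4/13 against control (1274 of all genes) and 5 in IL-4/13 + Inf against Inf (3308 of all genes). In the interaction they were 2 (502 of all genes). They were 10 in Inf against control (6244 of all genes) and 10 in IL-4/13 + Inf against control (4918 of all genes), with Tagln and Cnn1 among them. In IL-4/13 + Inf against IL-4/13 they were 7, with Tagln among them (4941 of all genes). With 1 library left out, the members called in the interaction were 1 to 2, with 2 without replicate 3 of IL-4/13, of Inf, or of IL-4/13 + Inf. All genes called in the interaction were 342 to 653. The replicate numbers did not pair the libraries. Deviations from the condition means correlated at −0.15 to 0.05 between libraries of the same number and −0.11 to 0.16 between other libraries, and 0 of 12 libraries were most like one of their own number. With a replicate block, 1 of 60 results changed its call (Tagln in IL-4/13 + Inf against IL-4/13, −1.31, adjusted p = 0.056). Signs changed only where no call was made. With library size alone, Actg2 in IL-4/13 against control was 0.000448 and Ccn1 in IL-4/13 + Inf against IL-4/13 was −0.0072. With 1 library left out, Actg2 in IL-4/13 against control ranged from −0.030 to 0.041, Actg2 in IL-4/13 + Inf against Inf from −0.017 to 0.113, and Ccn1 in IL-4/13 + Inf against IL-4/13 from −0.013 to 0.059. In the interaction, the ranges were −0.20 to 0.68 for Tagln, −0.75 to 0.63 for Cnn1, −0.035 to 0.037 for Tpm1, and −0.0095 to 0.12 for Actg2. With a prior count of 0.5, the 3 genes most like each of Acta2, Myl9, Tpm2, Actg2, Ccn1, Ccn2, and Postn were the same, and those of Tagln, Cnn1, and Tpm1 differed in part. With 3 libraries per condition and at most 32 counts, depth limits what can be said of Tagln and Cnn1. For Tagln, the strand setting of the counting, which is not given, may limit it too.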
